A study of Mus musculus with 2 samples.

Results

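Granular keratinocytes were taken from whole skin as cells that carried filaggrin and loricrin RNA, the products from which the cornified layer is assembled. They were chosen by a rule on UMIs (unique molecular identifiers, each of which stands for 1 captured probe pair). A cell had to hold between 200 and 45000 UMIs from 100 to 7500 genes, of which no more than 10% were mitochondrial UMIs, and of the retained cells, those were taken in which Flg and Lor together made up at least 1% of all UMIs. The summed Lce genes had to stay below 1%, Krt79, Defb6 and Cst6 together below 0.3%, and Col1a1, Col1a2, Col3a1 and Dcn together below 0.5%. The rule retained 94 cells of the wildtype and 39 of the library labelled Eppk1 knockout, which makes 133 of 17492 cells that passed the filters and of 17990 cells in all. Values of Flg, Lor and the other genes of the rule describe that choice.

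Dorsal skin punches came from a single wildtype C57BL/6J animal and a single Eppk1-/- animal of a line crossed back onto the same strain, with no treatment, and the age and sex of the mice were not given in the sources used here. Eppk1 encodes epiplakin, a plakin of epithelia that binds keratin filaments, and it was the gene removed. The skin was enzymatically dissociated, fixed and profiled with probes (10x Flex), and both animals were pooled under separate probe barcodes before the droplets were formed. With 1 library per genotype no test between genotypes was possible. All intervals are exact 95% intervals that cover counting error only, and neither the spread between mice nor that between cells is in them.

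The epidermis renews from a basal layer. Its cells move through the spinous layer, where Krt1 and Krt10 replace Krt5 and Krt14, into the granular layer, where profilaggrin and loricrin accumulate in keratohyalin granules, lipids are packed for export and tight junctions close the barrier. The late cornified envelope (Lce) genes follow as the cell loses its nucleus. Other cells of the same libraries served for comparison. Basal cells had at least 1% Krt5 and Krt14, with more of these than of Krt1 and Krt10. Spinous cells had at least 2% Krt1 and Krt10, with more of these than of Krt5 and Krt14, and less than 1% Lce genes. Lce-rich cells had at least 1% Lce genes. The limits of 0.3% on Krt79, Defb6 and Cst6 and of 0.5% on the collagen sum also held for these 3 sets. Collagen cells, a background type, had at least 1% of the collagen sum, and like basal and spinous cells less than 0.5% Flg and Lor. The 2 limits removed none of the 72 wildtype cells with at least 1% Lce genes, but 51 of the 104 in the labelled knockout, which left 53.

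The granular cells were deep. The wildtype cells held 1729702 UMIs with a median of 16770.5 per cell (range 585 to 44894) and 3678 genes, and the 39 labelled knockout cells 786351 UMIs with a median of 19144 (range 1118 to 42594) and 3675 genes. The lowest Flg and Lor share inside the rule was 1.04% in the wildtype and 1.33% in the labelled knockout, and the nearest cells outside it had 0.947% and 0.982%. Median shares inside were 4.50% and 4.93%. Of the 4 sets of keratinocytes together, granular cells were 3.03% (2.46 to 3.70, Clopper-Pearson) of 3099 wildtype cells and 1.5% (1.07 to 2.05) of 2597 labelled knockout cells. The share depends on the level of Flg and Lor, on the limit on Lce genes and on the upper limit on UMIs. Among cells that passed the filters, 195 wildtype and 159 labelled knockout cells had at least 1% Flg and Lor. The limit on Lce genes then left 125 and 55 of these. A further 93 wildtype and 58 labelled knockout cells met every share of the rule but lay above 45000 UMIs or 7500 genes, with medians of 64094 and 68177.5 UMIs. These high-UMI granular cells are separate cells of the same 2 libraries and are set beside the main results.

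Both libraries share 1211 droplet barcodes, in which a wildtype and a knockout cell could have been captured together. Among granular cells, 14 of 94 and 7 of 39 lay in such droplets. RNA of other cell types was measured by marker lists. Outer follicle markers summed to 2049 CPM (counts per 1000000 non-mitochondrial UMIs) in wildtype and 3091 CPM in labelled knockout granular cells, with Krt17, which keratinocytes under stress also carry, the most abundant. The markers of the inner root sheath and hair, led by Gata3, were at 541 and 332 CPM and those of the upper follicle, led by Cst6 of the rule, at 997 and 897.5 CPM. Sebaceous markers were at 224 and 230 CPM. The summed basal markers were at 606 and 484 CPM, and the fibroblast markers at 265 and 146 CPM with Col1a1 the most abundant. Macrophage and Langerhans cell markers summed to 225 and 427 CPM. Their most abundant gene, Cd74, the invariant chain of antigen presentation, had 171 and 232 UMIs, and 5 cells held 71.9% of these in the wildtype and 97.8% in the labelled knockout. T cell, endothelial, melanocyte and muscle marker lists each summed to less than 10 CPM. The genes of the Y chromosome that were listed stood at 0 UMIs in both libraries.

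Flg and Lor lie in the epidermal differentiation complex on chromosome 3 (Flg at 93273523 to 93293686 on the plus strand, Lor at 92080271 to 92083142 on the minus strand, GENCODE annotation, GRCm38). The 250 bases before the RefSeq starts of Flg, its neighbour Flg2 and Lor (GRCm38.p6) are shown because each holds the letters TGANTCA once, a pattern wider than the AP-1 site. AP-1 factors such as the abundant Jun and Fos recognise TGACTCA and TGAGTCA, of which Lor holds the latter, while Flg and Flg2 hold TGAATCA. The wider pattern reads the same on both strands apart from N, and it is in capitals. It begins 103 bases before the start of Flg, 69 before that of Flg2 and 48 before that of Lor.
Flg, chr3:93273296-93273545, plus strand: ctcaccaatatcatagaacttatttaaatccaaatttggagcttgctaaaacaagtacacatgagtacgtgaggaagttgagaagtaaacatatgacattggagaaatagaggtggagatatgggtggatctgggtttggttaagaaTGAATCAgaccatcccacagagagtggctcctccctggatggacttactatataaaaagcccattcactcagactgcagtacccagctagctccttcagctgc
Flg2, chr3:93197023-93197272, plus strand: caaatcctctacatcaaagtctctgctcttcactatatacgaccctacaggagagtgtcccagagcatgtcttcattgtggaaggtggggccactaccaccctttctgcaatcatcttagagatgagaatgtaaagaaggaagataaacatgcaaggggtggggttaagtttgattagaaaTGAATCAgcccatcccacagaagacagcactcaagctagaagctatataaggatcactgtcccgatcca
Lor, chr3:92083143-92083392, minus strand: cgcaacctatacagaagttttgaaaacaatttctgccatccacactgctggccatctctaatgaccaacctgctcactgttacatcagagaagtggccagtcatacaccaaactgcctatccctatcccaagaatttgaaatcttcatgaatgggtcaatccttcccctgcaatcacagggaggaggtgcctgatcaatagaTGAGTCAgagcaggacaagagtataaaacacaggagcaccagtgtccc
Among 24 keratohyalin and envelope genes with a promoter in the table, 11 (45.8%) held the motif in this window, as did 3 of the 5 marker genes, against 2113 (7.82%) of 27025 genes overall. For proteases and their inhibitors it was 5 of 19 (26.3%), and for barrier lipid genes 2 of 26 (7.69%). With only C or G at the place of N, it was 6 of 24 envelope genes (25%), 1 of the 5 marker genes, 2 of 19 protease genes and 2 of 26 lipid genes (7.69%), against 5.16% overall. Several of the envelope genes are copies of one another, and a match is a description of letters and not of binding.

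The label of granular cells was checked against 5 markers. Flg and Lor had chosen the cells. Serpina12, a serine protease inhibitor, stood at 1836 CPM in wildtype and 1840 CPM in labelled knockout granular cells and at 76.7 and 52.9 CPM in spinous cells. Hal, the histidine ammonia-lyase that turns the histidine of filaggrin into urocanic acid, stood at 1494 and 1414 CPM against 474 and 234 CPM in spinous cells. Krt78 went against its use as a granular marker. It was at 330.5 and 283.9 CPM in granular cells and at 609 and 442 CPM in spinous cells, so that it was lower in granular cells of both libraries (log2 ratio -0.88 and -0.64). Of the 3 markers that the rule did not use, Serpina12 and Hal therefore went with the label and Krt78 against it.

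**Figure D1:**
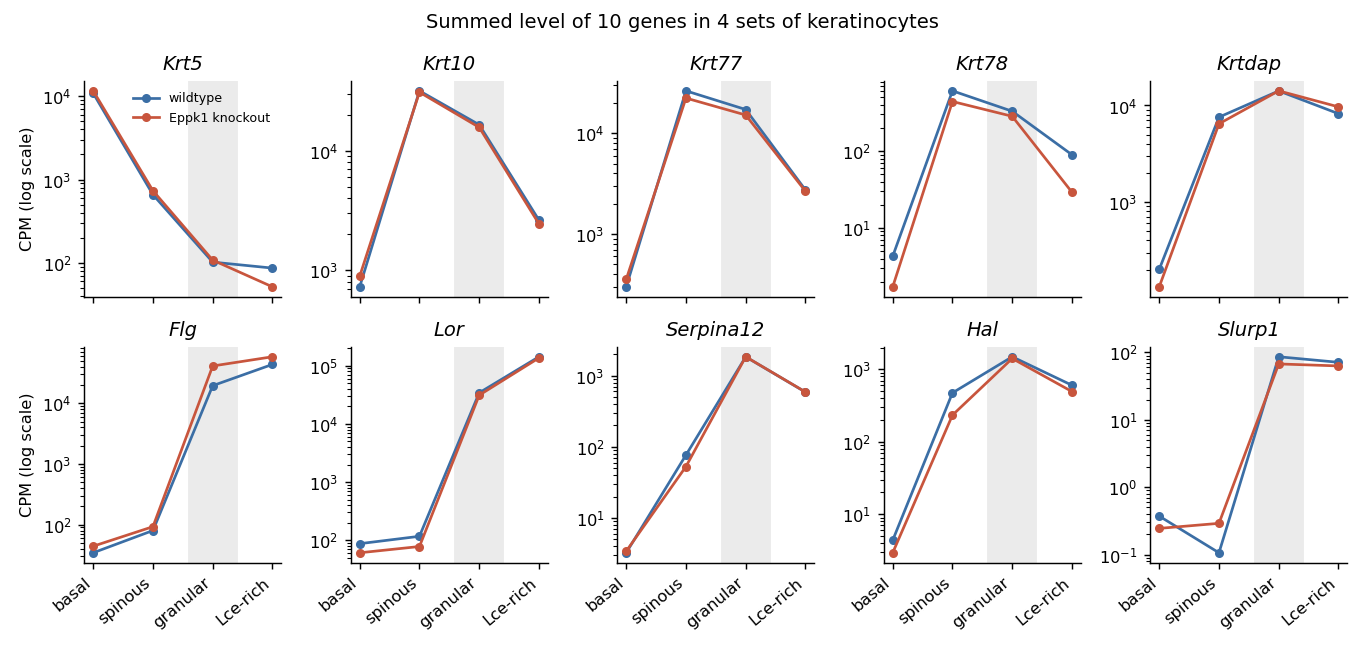
CPM on a log axis of 10 genes, summed over basal, spinous, granular (grey band) and Lce-rich cells of the wildtype (blue) and the labelled Eppk1 knockout (red). Serpina12 and Hal peak in granular cells of both libraries, while Krt78 peaks in spinous cells.

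The genes with the highest levels in granular over spinous cells, ranked by the lower ratio of both libraries, describe the chosen cells and were not tested. Lor and Flg led with the fibroblast growth factor Fgf22, which had no UMI in spinous cells of either library, and with Slurp1, a secreted protein of the Ly6 family that is mutated in the palmoplantar skin disease Mal de Meleda. Wildtype Slurp1 stood at 0.106 CPM in spinous and 86.2 CPM in granular cells, labelled knockout Slurp1 at 0.291 and 67.5 CPM. The secretoglobin Scgb1a1, Ttyh1, Myzap, the extracellular superoxide dismutase Sod3, Unc93a2, the sodium-proton exchanger Slc9a3, the carbonic anhydrase Car6, the acyltransferase Gpat3, Aif1l, Dusp18 and the hyaluronidase Hyal4 followed. Hyal4 closed the list of 15 genes with log2 ratios of 6.46 in the wildtype and 8.29 in the labelled knockout. Aif1l, Fgf22 and Gpat3 stood higher still in Lce-rich cells (log2 ratio of granular over Lce-rich wildtype cells -4.73, -3.79 and -2.24), whereas Car6 was highest in granular cells (1.31 in the wildtype and 1.26 in the labelled knockout). Lor, Flg and Scgb1a1 were higher in Lce-rich cells too (-2.06, -1.16 and -0.89 in the wildtype), and Slurp1 was lower there (0.27).

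Eppk1, the gene removed, was still detected in every granular cell of the library labelled Eppk1 knockout. The gene lies on chromosome 15 (76101481 to 76120195, minus strand, GRCm38). Wildtype granular cells held 5127 CPM (5021 to 5235, 8859 UMIs) and labelled knockout granular cells 3948 CPM (3810 to 4089, 3101 UMIs), a log2 ratio of -0.38 (-0.44 to -0.32). Cell by cell, the lowest, median and highest wildtype values were 0, 3730 and 24420 CPM, and those of the labelled knockout 49.2, 3793 and 10270 CPM. The range of the labelled knockout cells lay within that of the wildtype cells. A UMI of Eppk1 was found in 92 of 94 wildtype cells (97.9%) and in 39 of 39 labelled knockout cells, whose median depths were 16770.5 and 19144 UMIs. After each cell was thinned to 2000 UMIs, with 4 and 1 shallower cells left out, the shares were 91.1% (83.2 to 96.1) and 89.5% (75.2 to 97.1). In collagen cells, which should lack the gene, thinned shares were 13.4% in the wildtype and 3.08% in the labelled knockout, at median depths of 6945.5 and 6329 UMIs.

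The granular cells of the rule thus followed the label less closely than the basal and spinous cells did. In basal cells wildtype Eppk1 stood at 1256 CPM and labelled knockout Eppk1 at 75.9 CPM (log2 ratio -4.05, -4.17 to -3.93), and in spinous cells at 6661 and 1739 CPM (-1.94, -1.97 to -1.91). In collagen cells the values were 158 and 24.7 CPM (-2.68, -2.82 to -2.53). In Lce-rich cells the summed level was higher in the labelled knockout, at 939 against 738.5 CPM (0.35, 0.22 to 0.47). With the 51 labelled knockout cells kept that the collagen and follicle limits had removed, an alternative chosen after seeing the data, it was 980 CPM (0.41, 0.29 to 0.53). Within both limits, 5 wildtype cells held 89.4% of the wildtype UMIs, and the median cells were at 40.2 CPM (wildtype) and 463 CPM (labelled knockout). The interval of the granular ratio lay apart from those of all 4 other sets. Since these intervals leave out the spread between cells and between mice, this is no test of a difference between sets. Among cells that passed the filters, the granular cells of the labelled knockout held 15.1% of the Eppk1 UMIs and 1.49% of all UMIs. Those of the wildtype held 7.76% and 2.85%.

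**Figure D2:**
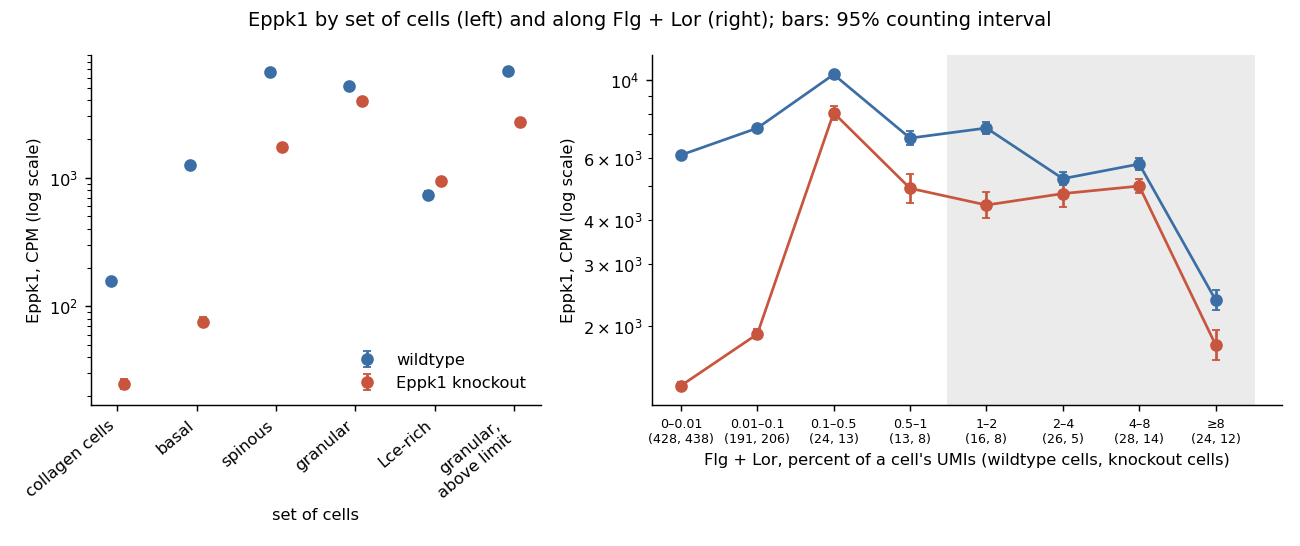
Eppk1 in CPM on log axes with 95% counting intervals, on the left summed over 6 sets of cells, on the right along the share of Flg and Lor in cells within the limits (the granular range in grey, numbers of wildtype and knockout cells below each bin). The distance between wildtype (blue) and labelled knockout (red) narrows from 6107 against 1349 CPM at the left end to 10350 against 8052 CPM where Flg and Lor reach 0.1 to 0.5%.

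Along the share of Flg and Lor, the labelled knockout came closer to the wildtype below the granular range, between 0.01 to 0.1% (log2 ratio -1.95) and 0.1 to 0.5%. Cells below 0.5% Flg and Lor entered this series with at least 2% Krt1 and Krt10, whether or not Krt5 and Krt14 stood above them, and all bins kept the limits on Lce genes, follicle genes and collagens. In cells with less than 0.01% Flg and Lor (428 wildtype, 438 labelled knockout), Eppk1 stood at 6107 and 1349 CPM, a log2 ratio of -2.18. Between 0.1 and 0.5%, both libraries reached their highest level, 10350 CPM in 24 wildtype and 8052 CPM in 13 labelled knockout cells (-0.36, -0.44 to -0.29). Depth moved with this step, from medians of 9797.5 and 7149 UMIs in the first bin to 23357 and 22612 UMIs, and its part in the result was not tested. The log2 ratio was -0.47 at 0.5 to 1%, and within the granular range -0.73 at 1 to 2%, -0.14 at 2 to 4%, -0.21 at 4 to 8% and -0.42 from 8% on, where both libraries were at their lowest within this range (2365 and 1763 CPM). The bin at 2 to 4% holds only 5 labelled knockout cells.

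The high-UMI granular cells did not show the same closeness. There, 6753 CPM of Eppk1 in wildtype cells faced 2714 CPM in labelled knockout cells (log2 ratio -1.31, -1.34 to -1.29), with median cells at 5239 and 2599 CPM. The ratio lay between -1.05 and -1.93 in each of 4 bins of Flg and Lor from 1% on. The last of these bins, from 8% on (-1.93), holds only 2 wildtype and 2 labelled knockout cells. Between 0.1 and 1% the ratio was -0.89 (-0.92 to -0.86), the closest to 0 of the 6 bins. All 58 labelled knockout cells of this kind had a UMI of Eppk1. High-UMI cells with 2% or more Krt1 and Krt10 and less than 0.1% Flg and Lor held 7769 and 3211 CPM (-1.27). Without an upper limit on UMIs and genes, the ratio over all cells of the rule was -1.14. Labelled knockout granular cells in droplets of that library alone (32 cells) held 4015 CPM, and those in shared droplets (7 cells) 3685 CPM. Scrublet doublet scores within the top 5% of a library were given to 0 of 94 wildtype and 4 of 39 labelled knockout granular cells, and without them the ratio was -0.35. Which part of Eppk1 the probes bind, and which part the knockout lacks, were not given in the sources used here, and whether this RNA is intact was not tested.

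**Figure D3:**
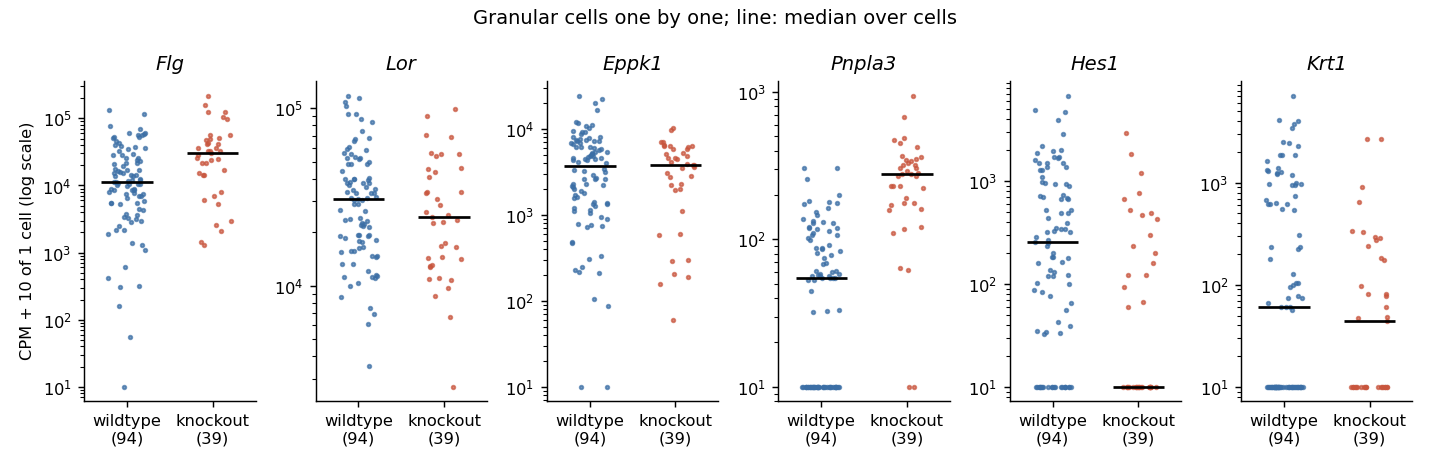
CPM plus 10 of single granular cells on log axes, for Flg, Lor, Eppk1, Pnpla3, Hes1 and Krt1 in 94 wildtype (blue) and 39 labelled knockout (red) cells, with the median over cells as a line. Eppk1 overlaps between the libraries, Pnpla3 is shifted up and Hes1 down in the labelled knockout.

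The other plakins link intermediate filaments to desmosomes, to the envelope or to other parts of the cytoskeleton. Of 6 genes, 4 were higher and 2 lower in labelled knockout granular cells, with a median log2 ratio of 0.18, which was -0.11 without the limit on Lce genes. Of all genes with at least 50 UMIs, 41.2% lay above 0 and 58.8% below, and 5.0% were higher and 14.1% lower by 0.5 or more. Desmoplakin (Dsp), the most abundant by UMIs (not scaled to length or probes, here and below), stood at 6679 and 7376 CPM (log2 ratio 0.14, 0.10 to 0.19). Periplakin (Ppl) was at 1543 and 1789 CPM (0.21) and its envelope partner envoplakin (Evpl) at 502 and 386 CPM (-0.38). Plectin (Plec) had 0.47 and Macf1 0.28. Dst, which encodes the plakins of hemidesmosomes and neurons, had -1.10 on 82 and 17 UMIs, with an interval of -1.98 to -0.37. In high-UMI granular cells these values were 0.01 for Dsp, -0.03 for Ppl, 0.01 for Evpl, 0.02 for Plec, 0.17 for Macf1 and -0.81 for Dst. With scaling by totals, none of the plakins apart from Dst lay 0.5 or more from 0 in either kind of granular cell. With TMM factors 1 of the 6, Plec, was higher by 0.5 or more in granular cells.

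Across the transcriptome, 5751 genes had a UMI in at least 25% of the granular cells of either library. At a log2 ratio of 0.5, 389 of them (6.76%) were higher and 809 (14.1%) lower in the labelled knockout, and for 181 and 473 of these the counting interval excluded 0. The detection rule helped to set these counts, since 164 of the higher genes (42.2%) reached 25% of cells in the labelled knockout alone and 246 of the lower (30.4%) in the wildtype alone. Among the 5030 genes that reached it in both libraries, 222 (4.41%) were higher and 560 (11.1%) lower. With TMM factors in place of totals, the counts over all 5751 genes were 572 and 615. Without an upper limit on UMIs and genes the order turned, with 281 genes higher and 232 lower. Over the 5219 genes that had 50 UMIs or more, the median was -0.07, and 0.03 with TMM factors. Other cells of the same libraries were set beside them. Of the 389 higher genes, 36 (9.25%) were also higher by 0.5 in spinous cells, against 1.93% of all detected genes, and 28 (7.20%) in high-UMI granular cells, against 1.88%. Of the 809 lower genes, 42 (5.19%) were lower by 0.5 in spinous cells, against 3.29% of all detected genes, and 46 (5.69%) in high-UMI granular cells, against 2.30%. The sign was opposite in high-UMI granular cells for 126 of the higher genes (32.4%, with 41.9% of all detected genes below 0 there) and for 397 of the lower genes (49.1%, with 58.1% above 0). The median log2 ratio of the lower genes was -0.01 in high-UMI granular cells and that of the higher genes 0.10, beside 0.04 for all detected genes. In all 3 sets of cells at once, 13 genes were higher and 23 lower by 0.5. These were 3.34% of the 389 higher and 2.84% of the 809 lower genes, against 0.365% and 0.765% of all detected genes past this limit in spinous and high-UMI granular cells.

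**Figure D4:**
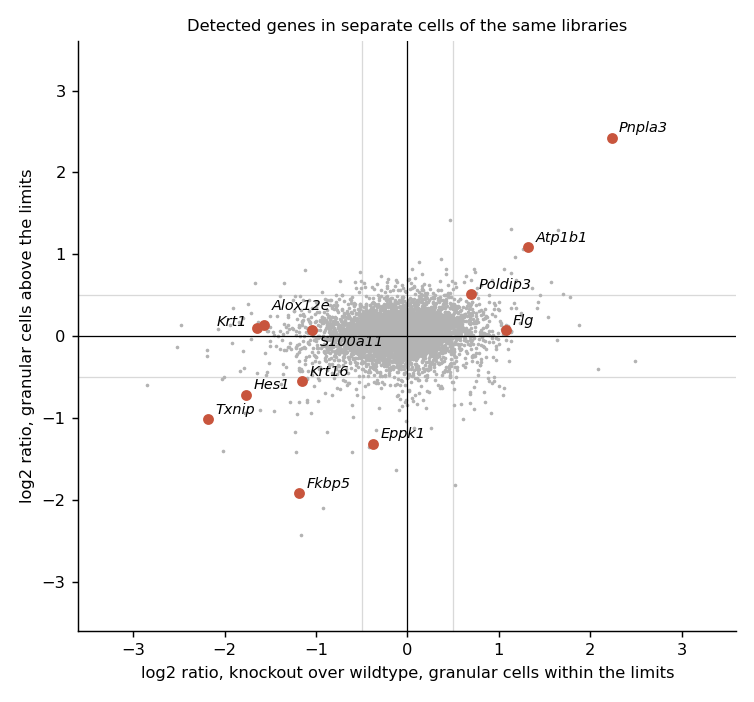
Log2 ratio of labelled knockout over wildtype for the 5751 detected genes in granular cells within the limits (x axis) and in high-UMI granular cells (y axis), with lines at 0.5 and -0.5 and 12 genes marked. Pnpla3, Atp1b1, Fkbp5, Txnip and Hes1 lie on the same side on both axes, while Flg, Krt1, Alox12e and S100a11 lie near 0 on the y axis.

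Pnpla3 was higher in all of these sets. It encodes a lipase and acyltransferase of lipid droplets. Its level was 56.1 CPM in wildtype and 264.8 CPM in labelled knockout granular cells (97 and 208 UMIs, log2 ratio 2.23, 1.88 to 2.60), with a UMI in 58.5% and 94.9% of the cells. The lowest, median and highest cells were at 0, 44.5 and 297 CPM in the wildtype and at 0, 266 and 935.6 CPM in the labelled knockout, so that the cells overlapped with a shifted median. The ratio was 2.12 in spinous, 2.42 in high-UMI granular and 1.77 in Lce-rich cells. Atp1b1, a subunit of the sodium pump, was at 142 and 356.5 CPM (1.32, 1.07 to 1.58), and at 0.66 and 1.09 in spinous and high-UMI granular cells. Its median granular cells were at 0 and 74.4 CPM, and 5 cells held 44.3% of its wildtype and 53.6% of its labelled knockout UMIs. Along Flg and Lor its ratio was 2.06 at 1 to 2%, 1.27 at 2 to 4%, 1.82 at 4 to 8% and -0.32 from 8% on. Poldip3 was at 161.5 and 262 CPM (0.70, 0.43 to 0.96), with 0.64 in spinous and 0.51 in high-UMI granular cells. Pnpla3 (84167837 to 84187236) and Poldip3 (83125976 to 83149384) lie on chromosome 15, as does Eppk1. Of the 389 higher genes 19 lay on that chromosome and of the 809 lower genes 17, among 221 detected genes there. These are 8.60% and 7.69% of the genes there, against 6.76% and 14.1% of all detected genes. These genes were named after their values in the 3 sets of cells had been seen.

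Among genes lower in all 3 sets of cells was Hes1, a repressor induced by Notch, at 664 and 195 CPM (log2 ratio -1.76, -2.02 to -1.52), with -1.26 in spinous and -0.72 in high-UMI granular cells. A UMI of Hes1 was found in 73 of 94 and 18 of 39 granular cells, and the median cells were at 243 and 0 CPM. The 5 richest cells held 41.3% of its wildtype and 66.0% of its labelled knockout UMIs. Txnip, an inhibitor of thioredoxin that responds to glucose, had 71.8 and 15.3 CPM (-2.18, -3.22 to -1.38), with -1.02 in spinous and -1.01 in high-UMI granular cells. All 12 of its labelled knockout UMIs lay in 3 cells. Fkbp5, a co-chaperone of the glucocorticoid receptor that this receptor induces, had 59.0 and 25.5 CPM (-1.19, -1.98 to -0.51), and its ratio was -1.92 both in spinous and in high-UMI granular cells. Of its 20 labelled knockout UMIs, 75% lay in 5 cells. The stress keratin Krt16 had 943 and 425 CPM (-1.15, and -0.55 in high-UMI granular cells), and its 5 richest cells held 46.6% of its wildtype and 71.3% of its labelled knockout UMIs. The helix-loop-helix inhibitor Id1 and the interferon regulator Irf7 had -1.17 and -1.61.

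Many of the 10 highest and 10 lowest ratios rested on few UMIs, and the filter on detection bore on them too. Of the highest, 8 had a UMI in 25% of the cells of the labelled knockout alone, and all 10 of the lowest reached this share in the wildtype alone. The highest were Coq5, Pnpla3, Fem1c, Card10, Tppp3, Isyna1, Pygm, Frat1, Cd74 and Clec16a. Coq5 had 4 and 11 UMIs (log2 ratio 2.49, 0.84 to 4.70) and was at -0.30 in high-UMI granular cells, where Fem1c had -0.41 and Frat1 -0.05. Cd74 had 1.58 from the few cells named above, and -2.39 without the cells of the highest doublet scores and -2.68 without shared droplets. The lowest were Zbtb16, Defb6, Sprr2d, Commd4, Sri, Txnip, Wnk2, B3gat3, Ccn1 and Adh1. Defb6 belongs to the rule. Zbtb16, a transcription factor induced by glucocorticoids, had 55 and 3 UMIs (-2.85, -5.38 to -1.44) and -0.60 in high-UMI granular cells, and Ccn1, a matrix protein induced by YAP, had 156 and 17 UMIs (-2.02), with -1.40 there. Sprr2d, which has close copies that may share probes, had 202 and 16 UMIs with 82.2% of the wildtype UMIs in 5 cells.

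Keratohyalin and cornified envelope genes had more members above than below 0. Of 17 members with at least 50 UMIs, 13 were higher and 4 lower, 2 and 1 of them by 0.5 or more, against 5.0% and 14.1% of all genes with at least 50 UMIs. With TMM factors 15 were higher and 2 lower, 5 and 1 of them by 0.5 or more. Above 0 lay 41.2% of all these genes and below 0 58.8%. The median log2 ratio of the list was 0.16 beside -0.07 for all genes. It was 0.035 with labelled knockout cells weighted to the Flg and Lor mix of the wildtype, and 0.016 without the limit on Lce genes. The filaggrin relatives Hrnr (2821 and 4619 CPM, 0.71) and Flg2 (4266 and 6447 CPM, 0.60) had the highest ratios, followed by the small envelope protein Cnfn (0.48) and corneodesmosin (Cdsn, 0.45). Suprabasin (Sbsn), the most abundant member, stood at 17770 and 18360 CPM (0.05), involucrin (Ivl) at 1062 and 1054 CPM and the crosslinking enzyme Tgm1 at 615 and 704 CPM. Sprr2d was the lowest. In high-UMI granular cells the median was 0.01, with Hrnr at 0.00 and Flg2 at 0.11, and in spinous cells it was -0.28.

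Flg and Lor chose the cells, and their values are given as a description that supports nothing on the list above. Flg stood at 19500 and 41150 CPM (log2 ratio 1.08), and Lor at 34340 and 31230 CPM (-0.14). The median cell held 11200 and 30870 CPM of Flg and 30640 and 24290 CPM of Lor. UMIs of Flg per UMI of Lor were 0.568 in wildtype and 1.32 in labelled knockout granular cells, 0.617 and 0.977 in high-UMI granular cells, and 0.305 and 0.427 in Lce-rich cells. More Flg than Lor UMIs were found in 18 of 94 wildtype (19.1%) and 18 of 39 labelled knockout cells (46.2%). In high-UMI granular cells Flg itself differed little (0.07) and Lor was at -0.59. The probes of both genes differ, so the ratio can be set between libraries but not read as a ratio of transcripts.

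Enzymes that cut and degrade filaggrin were split, with 6 of 11 higher and 5 lower (9 and 2 with TMM factors) and none past 0.5, where 41.2% of all genes lay above 0. The median was 0.00, and -0.02 in high-UMI granular cells. Asprv1, the protease SASPase that cuts profilaggrin, was the most abundant and had the highest ratio (4980 and 6059 CPM, 0.28), and Capn1 the lowest (-0.24). Casp14 was at 331 and 328.5 CPM. Among kallikreins, other proteases and their inhibitors 8 of 14 were higher, beside 41.2% of all genes with at least 50 UMIs. By 0.5 or more none was higher and 3 (21.4%) were lower, or 1 and 2 with TMM factors, beside 5.0% and 14.1% of all genes. Klk9 had the highest ratio (0.50), the abundant inhibitor Serpinb2 had 3732 and 2708 CPM (-0.46), and Serpinb12 the lowest ratio (-1.22), with -1.54 in spinous and -1.41 in high-UMI granular cells. The desquamation protease Klk7 stood at 2758 and 3414 CPM and its inhibitor Spink5 at 2797 and 3324 CPM.

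Genes of barrier lipids lay close to 0 as a list. Of 30 members, 17 were higher and 13 lower (22 and 8 with TMM factors), where 41.2% of all genes lay above 0, with none of them higher and 3 (10.0%) lower by 0.5 or more, near the 14.1% of all genes. The median was 0.06, and -0.02 in high-UMI granular cells. The lipoxygenase Alox12b, which oxidises the linoleate of acylceramides, had the highest ratio (920 and 1209 CPM, 0.39) and the phospholipase Pla2g2f was the most abundant (2260 and 2886 CPM). The lamellar body transporter Abca12 was at 1199 and 1362 CPM (0.18). The lowest was Alox12e, another lipoxygenase, at 420 and 141 CPM (-1.56, -1.87 to -1.28). It was at 0.14 in high-UMI granular cells, and 5 cells held 51.3% and 79.3% of its UMIs. Among 20 genes of cholesterol synthesis 13 were higher, beside the same 41.2% of all genes, and 1 was lower by 0.5 or more. The median was 0.09 (0.11 in high-UMI granular cells), Hmgcs1 was the most abundant (874 and 943 CPM) and Hsd17b7 the lowest (-1.30).

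**Figure D5:**
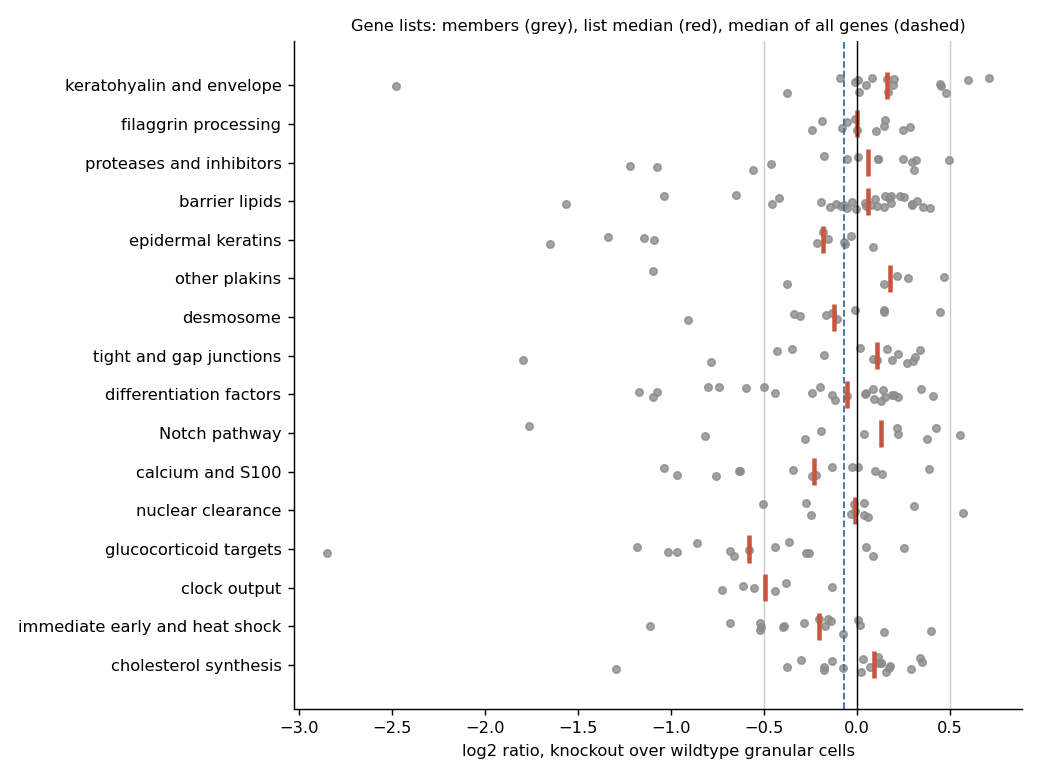
Log2 ratio of labelled knockout over wildtype granular cells for the members with at least 50 UMIs of 16 gene lists (grey points), the median of each list (red) and that of all genes with at least 50 UMIs (dashed, -0.07). The glucocorticoid and clock output lists lie to the left at -0.58 and -0.50, the envelope and other plakin lists to the right of the dashed line at 0.16 and 0.18.

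Of 11 keratins 10 lay below 0 (7 with TMM factors), 4 of them by 0.5 or more, where 58.8% of all genes with at least 50 UMIs lay below 0 and 14.1% by 0.5 or more. The median was -0.18, and -0.11 in high-UMI granular cells. The suprabasal keratins with the most UMIs differed little. Krt77, the most abundant, stood at 17290 and 15240 CPM (log2 ratio -0.18), Krt10 at 16550 and 15740 CPM (-0.07) and Krt80 at 6851 and 6700 CPM (-0.03). Krt1 had 797 and 253 CPM (-1.65, -1.88 to -1.44), and 5 cells held 60.1% of the wildtype and 82.4% of the labelled knockout UMIs. Median cells had 51.0 and 33.9 CPM, and in high-UMI granular cells Krt1 was at 0.10. Krt5 had the highest ratio (0.08). Genes of desmosomes (3 higher and 7 lower of 10, or 4 and 6 with TMM factors, median -0.12, and -0.04 in high-UMI granular cells) ranged from Cdsn to desmocollin 3 (Dsc3, -0.91). Tight and gap junction genes had 10 of 15 higher and 5 lower with a median of 0.11 (0.18 in high-UMI granular cells). The connexin Gjb5 was the lowest (-1.80), and the abundant Cldn4 was at 0.09.

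The genes lower in the labelled knockout were set against the spinous level. Of the 809 lower genes 67.2% stood lower in granular than in spinous cells of the wildtype, against 59.9% of all detected genes and 56.8% of the 389 higher genes. Krt1, Dsc3, Gjb5, Alox12e, Gata3, Trp63 and S100a11 were of this kind, and the ratios of Krt1, Gata3, Alox12e, Trp63 and S100a11 lay between 0.00 and 0.14 in high-UMI granular cells, that of Dsc3 at -0.10 and that of Gjb5 at -0.19. Transcription factors of differentiation had 12 of 25 members higher and 13 lower (median -0.05, or 0.05 with TMM factors and 0.05 in high-UMI granular cells). By 0.5 or more none was higher and 7 (28.0%) were lower, or 1 and 5 with TMM factors, beside 5.0% and 14.1% of all genes with at least 50 UMIs. They ranged from Rora (0.41) to Trp63 (-1.18), with the abundant Cebpb at 2357 and 2614 CPM. Klf4, which drives barrier formation, was at 2269 and 2640 CPM (0.22), and Grhl3 at 1304 and 1258 CPM. In the Notch pathway 6 of 10 were higher, beside 41.2% of all genes (median 0.13, and 0.15 in high-UMI granular cells), Notch1 the most (0.56), and Hes1 was both the most abundant and the lowest.

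Calcium-binding genes had 4 of 14 higher and 10 lower, 5 of them by 0.5 or more, with a median of -0.23 (-0.10 in high-UMI granular cells), beside 58.8% of all genes below 0 and 14.1% by 0.5 or more. Plcd1 had the highest ratio (0.39), S100a11 the lowest (692 and 336 CPM, -1.04), and the most abundant, Calm4, stood at 4523 and 3826 CPM (-0.24). Genes of nuclear and organelle clearance, needed as the cell cornifies, had a median of -0.01 (0.09 with TMM factors), with the nuclease Trex2 highest (351 and 521 CPM, 0.57), Dnase1l2 lowest (-0.51) and Lmna the most abundant. Of surface and antimicrobial genes 3 of 10 were higher, or 5 with TMM factors (median -0.11), where 41.2% of all genes lay above 0. By 0.5 or more 2 were higher and none lower, beside 5.0% and 14.1% of all genes with at least 50 UMIs. These 2 were the abundant Wfdc21 (2572 and 3667 CPM, 0.51) and Lyz2 (0.68), whose 37 labelled knockout UMIs all lay in 2 cells.

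Glucocorticoid-induced genes were mostly below 0 in these cells. Of 15 members 12 were lower, 8 of them by 0.5 or more (7 with TMM factors), and 3 higher, none by that much, against 58.8% of all genes below 0 and 14.1% by 0.5 or more. The median log2 ratio was -0.58 in these cells, -0.16 in high-UMI granular cells and 0.03 in spinous cells. The most abundant, the NF-kappaB inhibitor Nfkbia, stood at 3682 and 2331 CPM (-0.66, -0.74 to -0.58), but at 0.04 in high-UMI granular cells. The phosphatase Dusp1 had -0.69, GILZ (Tsc22d3) -0.86, Ddit4 -0.97, Mt1 -1.02 and Zbtb16 the lowest ratio, and Errfi1 the highest (0.25). In high-UMI granular cells Dusp1 was at -0.16, Tsc22d3 at -0.36, Ddit4 at -0.53, Mt1 at -0.61 and Zbtb16 at -0.60. In spinous cells Dusp1 was at 0.03, Mt1 at -0.03, Tsc22d3 at -0.37, Ddit4 at -0.44 and Zbtb16 at -0.47. Clock genes of the Per phase were lower in 6 of 6, against 58.8% of all genes, and by 0.5 or more in 3 (2 with TMM factors). Their median was -0.50, and -0.21 in high-UMI granular cells. They ranged from Ciart (-0.14) to Nr1d1 (-0.72), with Per1 the most abundant at 399 and 293 CPM. The opposite phase had 3 of 5 higher, with Nfil3 at 0.77 and Cry1 at 0.09. Immediate early and heat shock genes, which tissue handling induces, were lower in 13 of 17, against 58.8% of all genes, and by 0.5 or more in 5 (2 with TMM factors). Their median was -0.21, and 0.02 in high-UMI granular cells, with Jun at 3043 and 1403 CPM (-1.12), the abundant Egr1 at 5128 and 5152 CPM and Dnajb1 the highest (0.40). Their part in the lower ratios of the other lists was not tested. Dusp1 stands in both this and the glucocorticoid list, and Per1 in both the glucocorticoid and the clock list.

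Of 6 genes induced by barrier stress, 3 were higher and 3 lower (4 and 2 with TMM factors), where 41.2% of all genes lay above 0. By 0.5 or more 1 was higher and 2 were lower, beside 5.0% and 14.1% of all genes with at least 50 UMIs. Krt17 was higher in the labelled knockout (1783 and 2880 CPM, log2 ratio 0.69, 0.61 to 0.77), also by 0.69 in high-UMI granular cells, whereas it was at -0.21 in spinous cells. In high-UMI granular cells 1 member of the stress list was higher and 5 were lower (median -0.19), and the spinous median was -0.40. Krt6a, the lowest of that list, had 136 and 24 UMIs (-1.34). Krt17 is also a marker of the outer hair follicle, whose other markers Sox9 and Postn had -0.19 and -1.28. The ratio of Postn changed sign as the mean of per-cell CPM.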

How the data were processed

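The authors deposited a matrix of UMI counts per gene and cell for each library, filtered to cells, made with Cell Ranger 8.0.1 on mm10 (GRCm38) per the file headers and labels. No authors' cell annotation was used here. Cells were filtered and chosen as described, and UMI counts of non-mitochondrial genes were summed over the granular cells of each library and scaled to CPM. Log2 ratios were taken after adding 0.5 UMI, with exact conditional binomial 95% intervals. Shares carry Clopper-Pearson intervals. Gene lists were read through members with at least 50 UMIs. Named genes are the 5 markers, the plakins, the 10 highest and 10 lowest ratios of detected genes (25% or more of the cells of either library), the 15 highest ratios of granular over spinous cells, and the highest, lowest and most abundant member of each list, with further genes named after their values were seen, and some members are not reported here. Members and lists were chosen with earlier results of these data known. Doublets were scored with Scrublet in scanpy 1.11.5 and retained. Alternative scaling used edgeR 4.0.16 and DESeq2 1.42.0, for factors only. Interval and ratio functions were tested on data simulated with counting error alone. That simulation held no spread between cells or mice and so cannot check the intervals against it.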

Additional observations from a re-analysis of the deposited data

Results flagged for a closer look

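Eppk1 lay on opposite sides of 0 in 2 sets of cells under the same contrast. The log2 ratio of labelled knockout over wildtype was -0.38 in granular cells and 0.35 in Lce-rich cells. With 1 library per genotype, this difference was not tested. In Lce-rich cells without the collagen and follicle limits, which had removed 51 of 104 labelled knockout cells and no wildtype cell, the ratio was 0.41. In Lce-rich cells 5 wildtype cells held 89.4% of the Eppk1 UMIs and 5 labelled knockout cells 58.8%.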

How the results depend on the processing

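With 1 library per genotype, no difference between mice can be separated from a difference between libraries, and the values of the report rest on 94 wildtype and 39 labelled knockout granular cells. The Eppk1 ratio in granular cells stayed below 0 under every alternative run. It was -0.24 with Flg and Lor at 2% or more, -0.31 with Lce genes below 0.5%, -0.51 without a limit on Lce genes, -0.49 with follicle and collagen sums below 0.1%, -1.14 without an upper limit on UMIs and genes, -0.28 with TMM factors, -0.29 with median-of-ratios size factors, -0.30 as the mean of per-cell CPM, -0.30 with cells thinned to 2000 UMIs and -1.31 in high-UMI cells only. This last set, and leaving out the 5 cells with the most Eppk1 UMIs, were chosen after seeing the data. The number of higher genes, 389, became 126 without a limit on Lce genes and 593 as the mean of per-cell CPM. It was 281 without an upper limit and 506 in high-UMI cells only, where the lower genes were fewer (232 and 344). After thinning it was 1526, and with a UMI in 10% of cells 831. It became 1867 without a filter on low counts and 50 at a log2 ratio of 1. The number of lower genes, 809, became 1249 with follicle and collagen sums below 0.1%, 232 without an upper limit, 1537 after thinning, 1585 with a UMI in 10% of cells, 2992 without a filter, 174 at a log2 ratio of 1 and 344 in high-UMI cells only. The median of the envelope list was 0.27 with Flg and Lor at 0.5% or more, 0.016 without a limit on Lce genes and also without an upper limit, 0.035 with knockout cells weighted to the wildtype mix and 0.011 in high-UMI cells. The median of the other plakins, 0.18, was -0.11 without a limit on Lce genes, -0.034 with follicle and collagen sums below 0.1%, 0.021 without an upper limit, 0.059 after thinning and 0.0072 in high-UMI cells. The glucocorticoid median was -0.73 with Flg and Lor at 2% or more, -0.72 with Lce genes below 0.5%, -0.25 without an upper limit and -0.16 in high-UMI cells. Of all cells that passed the filters, 1.06% in the wildtype and 0.453% in the labelled knockout were granular, which became 1.85% and 1.07% without a limit on Lce genes, 0.518% and 0.302% with follicle and collagen sums below 0.1%, and 2.05% and 1.10% without an upper limit. Ratios of 0.5 or more that changed sign in high-UMI cells only were those of Alox12e (0.14), Coq5 (-0.30), Fem1c (-0.41), Fgf22 (-0.82), Frat1 (-0.048), Gata3 (0.14), Hyal4 (-0.16), Krt1 (0.10), Nfkbia (0.044), S100a11 (0.079), Scgb1a1 (-0.10), Sprr2d (0.13), Trp63 (0.0024), Unc93a2 (-0.41), Wnk2 (0.087) and the inner root sheath list (0.14). Without an upper limit they were Alox12e (0.074), Fgf22 (-0.50), Gata3 and the inner root sheath list (0.13), Krt1 (0.062), S100a11 (0.067), Sprr2d (0.047) and Trp63 (0.0022). Cd74 was at -2.39 without the highest Scrublet scores and at -2.68 without shared droplets. With follicle and collagen sums below 0.1%, Dnase1l2 was at 0.21 and the fibroblast list at 0.031. Thinning gave Hsd17b7 0.060, and the mean of per-cell CPM gave Postn 0.25. The cause was not tested.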
